A study of Homo sapiens with 6 samples.

Results

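The genes described here encode the subunits, activators, inhibitor and assembly factors of the proteasome, chosen by their symbols in the platform annotation, which start with PSMA, PSMB, PSMC, PSMD, PSME, PSMF or PSMG. The symbols covered 46 genes on 71 probes, of 18849 genes on 28098 probes with a single symbol, and no pseudogene was among them. Of the 46, 43 are proteasome components or factors. The other 3 share the prefix only, namely the recombination factor PSMC3IP, the activator-binding protein PSME3IP1 and the antisense RNA PSMD6-AS2. PSMA7, PSMC5, PSMD7, PSMD13 and PSMG4 had no named probe in the annotation used and were not analysed here.

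The RNA was that of SKOV3ip1, a human ovarian cancer cell line derived from SKOV3, read on 6 single-colour Illumina bead arrays. On 3 of them (siCon) the cells carried a control siRNA. On the other 3 (siSTAT3) the siRNA targeted STAT3, the transcription factor that many cytokine and growth factor receptors activate. All arrays share this 1 cell line, and the labels give no time after transfection, dose or siRNA sequence. They also do not say that replicates were separate cultures, so p-values measure the spread between these arrays, which may be technical.

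The proteasome degrades proteins that carry ubiquitin chains. Its barrel, the 20S core, is built of outer rings of alpha subunits (PSMA) around inner rings of beta subunits (PSMB), of which PSMB5, PSMB6 and PSMB7 hold the protease sites. After interferon, cells replace these by PSMB8, PSMB9 and PSMB10 to form the immunoproteasome, which favours peptides for display on MHC class I. The 19S cap that feeds substrates into the core has a base, with the unfolding ATPases (PSMC), and a lid, with the deubiquitinase PSMD14. PSME1 and PSME2 form an alternative, interferon-inducible activator.

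Values are quantile-normalised intensities, changes are log2 siSTAT3 over siCon ± SE with n = 3 arrays per group, intervals are 95% intervals of limma's fit, and limma's p-values were adjusted by Benjamini-Hochberg over 14145 genes. A gene is called where its adjusted p lies below 0.05, and each gene is read on its brightest tested probe unless stated. STAT3 itself fell from 2521 ± 269 to 602 ± 60.04 (SD, n = 3), a log2 change of -2.07 ± 0.12 (limma adjusted p = 2.44e-07). The carcinoma markers EPCAM (2766 in siCon) and PAX8 (1247) were well above the median of all probes (92.8). CDH1, MUC16 and WT1, also markers of such tumours, lay near it (98.4, 110 and 102 in siCon). The epithelial keratin KRT8 and the mesothelial LRRN4, which each fell (adjusted p = 0.0458 and 0.0191), were the called genes of their marker lists, with 13 and 7 tested genes. Leukocytes make immunoproteasomes at rest, and of their 10 markers on the array 6 passed the filter and 0 were called. CD68 apart, these lay near that median, with the smallest p for MS4A1 (105 ± 17.1 and 84.5 ± 2.44, adjusted p = 0.321). The third siCon array stood apart from the others on the first principal component (-23.8, against -1.18 to 9.77), and several results, though not all, are also given without it.

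The upstream windows of PSMB8, PSMB9 and PSMB10 are shown because these inducible subunits had the highest changes of the 44 proteasome genes tested. They are RefSeq windows of build GRCh38.p14, 250 bases before to 50 bases after the annotated start, read 5′ to 3′ on the gene's strand. Capitals mark GAAA, any 2 bases and GAAA, the core of an interferon-stimulated response element, found on either strand. PSMB8 has 2 annotated starts.

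PSMB8 upstream start, chr6:32844630-32844929, minus strand: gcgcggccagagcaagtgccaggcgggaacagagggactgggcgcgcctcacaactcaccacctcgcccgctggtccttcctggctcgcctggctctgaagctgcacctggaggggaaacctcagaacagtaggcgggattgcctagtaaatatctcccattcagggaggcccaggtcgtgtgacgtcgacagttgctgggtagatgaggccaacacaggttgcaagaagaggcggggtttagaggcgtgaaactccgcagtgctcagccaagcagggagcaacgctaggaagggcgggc
PSMB8 downstream start, chr6:32843998-32844297, minus strand: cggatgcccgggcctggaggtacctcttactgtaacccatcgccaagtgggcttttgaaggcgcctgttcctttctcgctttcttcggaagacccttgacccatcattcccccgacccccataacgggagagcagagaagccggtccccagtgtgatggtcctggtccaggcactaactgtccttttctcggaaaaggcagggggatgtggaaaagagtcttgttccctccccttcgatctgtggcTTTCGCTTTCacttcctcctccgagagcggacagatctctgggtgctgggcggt
PSMB9, chr6:32853942-32854241, plus strand: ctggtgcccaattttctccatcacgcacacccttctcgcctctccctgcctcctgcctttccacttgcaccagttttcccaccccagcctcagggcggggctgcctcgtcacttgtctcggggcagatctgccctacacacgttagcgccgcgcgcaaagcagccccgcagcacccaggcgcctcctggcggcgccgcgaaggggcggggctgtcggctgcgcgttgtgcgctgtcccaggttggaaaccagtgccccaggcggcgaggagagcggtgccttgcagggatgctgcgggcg
PSMB10, chr16:67936801-67937100, minus strand: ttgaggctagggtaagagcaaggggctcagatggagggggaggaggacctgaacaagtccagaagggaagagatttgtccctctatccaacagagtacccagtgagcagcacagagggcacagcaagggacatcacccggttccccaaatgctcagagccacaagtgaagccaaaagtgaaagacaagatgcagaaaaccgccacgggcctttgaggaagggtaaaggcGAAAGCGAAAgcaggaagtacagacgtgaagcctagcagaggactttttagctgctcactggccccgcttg

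The PSMB8 window at the downstream start held 1 match, beginning 4 bases before the start. PSMB10 held 1 match, beginning 21 bases before the start. The PSMB9 window and the other PSMB8 window held none. PSMB9 lies next to TAP1, the neighbouring peptide transporter gene on chromosome 6, which has 2 windows. One of them held 2 matches that overlap each other, and the other held none. No match in the printed windows overlapped one of the other motifs searched. Of 43 component genes, 38 had 46 windows in the table. PSMB1, PSMB6, PSMB7, PSMD4 and PSMG3 had no window there and were not searched for any motif. Of the 46 windows, 6 (13.04%) held the interferon motif, against 3.57% of 35116 windows of that length. The other carriers were PSMA4, PSMB4, PSME1 and PSME2.

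Other motifs were counted in the same way on both strands. TTCNNNGAA, the palindrome bound by STAT dimers, was in 8 member windows (17.39%, against 7.66% of all). The carriers were PSMA2, PSMA8, PSMB5, PSMB8, PSMC4, PSMD2, PSMD3 and PSME3, so PSMB8 and its constitutive partner PSMB5 both held it. In PSMB8 it lay in the downstream window and did not overlap the capitals. TGACNNNGC, the core of the antioxidant response element that NFE2L1 and NFE2L2 bind, was in 14 (30.43%, against 13.35%), and CCAAT in 18 (39.13%, against 34.61%). A match of letters is a description of the window and not a measured site, and windows of 1 gene are not independent.

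No proteasome gene was called. Of the 46 genes, 44 passed the filter on dim probes and were tested, and 0 were higher and 0 lower by limma, where 1.46% of all 14145 genes were called (0.396% higher and 1.07% lower). At an unadjusted p under 0.05 there were 4 (PSMB8, PSMB9, PSMB10 and PSMD11), against 12.1% of all genes. Read probe by probe, 0 of 65 tested probes were called, against 1.2% of 19364 probes. The median change of the 44 was 0.03, against 0.01 for all genes, with 25 above 0 and 19 below. Changes ran from -0.39 for PSMD11 to 0.48 for PSMB9. For 41 of the 44 the 95% interval lay within a 1.5-fold change in either direction, and it reached a 2-fold change for 0. The exceptions were PSMB9, PSMB10 and PSMD11. The groups did not overlap for 6 of the 44 (13.6%), PSMB4, PSMB8, PSMB9 and PSMB10 higher and PSMD6 and PSMD11 lower, against 17.2% of all genes (8.63% higher and 8.56% lower), so the share is no larger than the background.

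**Figure D1:**
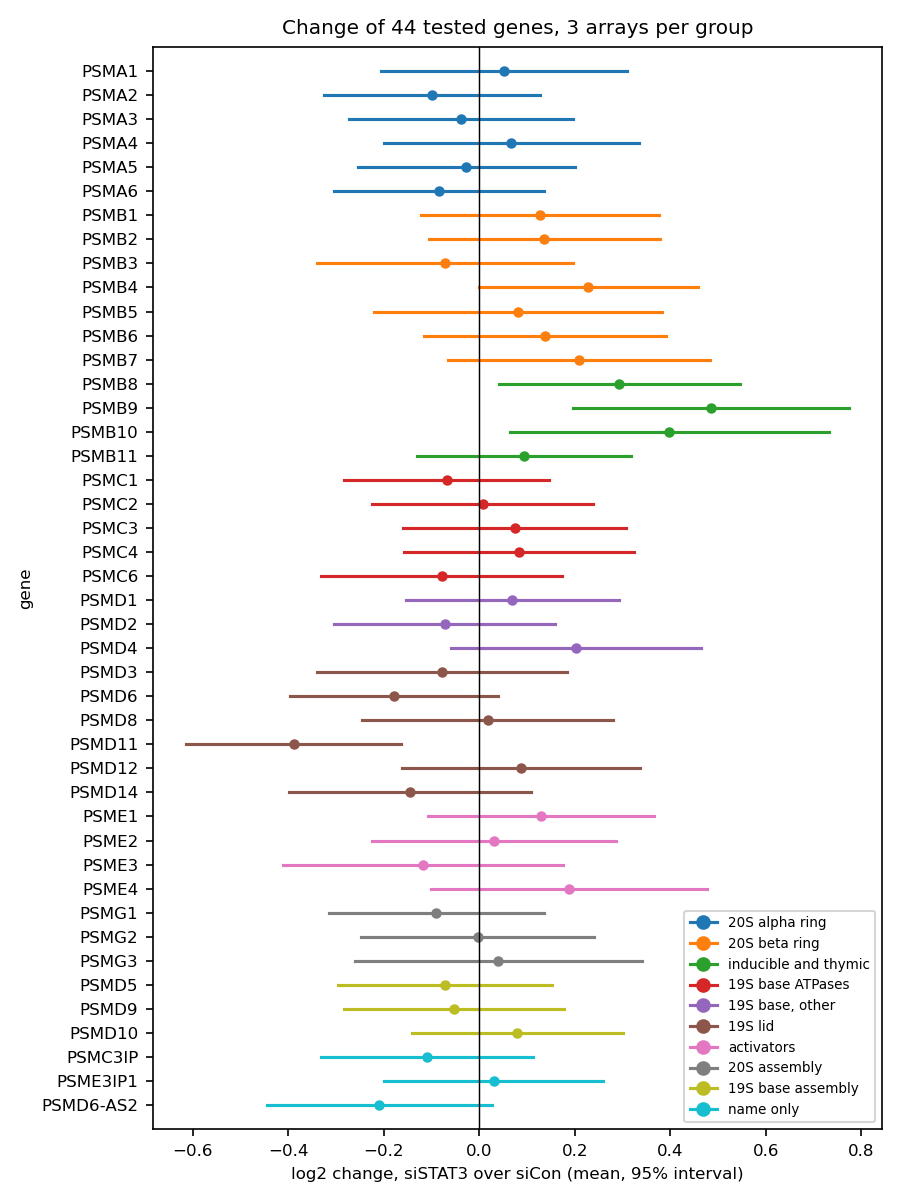
Log2 change of each of the 44 tested genes (points, siSTAT3 over siCon, 3 arrays per group) with its 95% interval (lines), ordered and coloured by class, on an x axis in log2 units. Most intervals cross 0, and those of PSMB8, PSMB9, PSMB10 and PSMD11 do not.

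The interferon-inducible catalytic subunits PSMB8, PSMB9 and PSMB10 had the highest changes of the 44 tested genes, 0.29 to 0.48. None of the 3 was called. PSMB9, the inducible form of the caspase-like subunit, read 343, 308 and 233 in siCon (replicates 1, 2 and 3, as in all such series below) and 370, 438 and 416 in siSTAT3. Every siSTAT3 array lay above every siCon array. Its change was 0.48 ± 0.14, a 1.40-fold difference with an interval of 0.20 to 0.77 (limma adjusted p = 0.104). A further PSMB9 probe lay near background at 95.2 ± 5.61 and 99.7 ± 11.6 and gave 0.06.

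PSMB8, the inducible form of the chymotrypsin-like subunit, read 933, 871 and 718 in siCon and 994, 1112 and 971 in siSTAT3. These groups did not overlap either, though siCon array 1 and siSTAT3 array 3 were close. The change was 0.29 ± 0.12 (interval 0.04 to 0.54, limma adjusted p = 0.321). Its other probes pointed the same way. ILMN_1767006 read 345, 313 and 291 in siCon against 444, 421 and 408 in siSTAT3, a change of 0.43 ± 0.11 with a limma adjusted p of 0.071 over probes. ILMN_1747195 gave 0.31 ± 0.13 with overlapping groups, and ILMN_2284794, near background, gave 0.15.

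PSMB10, the inducible form of the trypsin-like subunit, read 4099, 3733 and 2415 in siCon and 4535, 4254 and 4379 in siSTAT3. The groups did not overlap, and the third siCon array was far below the other arrays. The change was 0.40 ± 0.16 (interval 0.06 to 0.73, limma adjusted p = 0.307). Under median scaling the groups of PSMB10 and of PSMB8 overlapped. Without siCon replicate 3 the PSMB10 change was 0.17 (adjusted p = 0.519). In that fit PSMB9 gave 0.33 (adjusted p = 0.144) and PSMB8 gave 0.18 (adjusted p = 0.469), and the groups of all 3 genes did not overlap, where 30.4% of all genes had groups that did not. PSMB11, the subunit of the thymus proteasome, lay near background at 87.8 ± 3.06 and 93.9 ± 7.88.

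The constitutive subunits that these 3 replace showed smaller differences. PSMB5, the chymotrypsin-like subunit, read 2703, 2812 and 1853 in siCon and 2537, 2720 and 2418 in siSTAT3. Its groups overlapped (0.08 ± 0.14, adjusted p = 0.901), and without siCon replicate 3 the change was -0.11. PSMB6, the caspase-like subunit, read 5580, 5568 and 4271 against 5804, 5634 and 5400 (0.14 ± 0.12, adjusted p = 0.745). PSMB7, the trypsin-like subunit, read 9130, 9536 and 6847 against 9446, 9245 and 10534 (0.21 ± 0.13, adjusted p = 0.588). In each of the 3 the lowest array was siCon replicate 3, and the groups overlapped. Without that array PSMB6 gave 0.01 and PSMB7 gave 0.06.

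Inducible and constitutive partners were then compared within each array, since a shift common to both cancels in their difference. PSMB9 minus PSMB6 was higher by 0.35 in siSTAT3 and PSMB8 minus PSMB5 by 0.21, in both cases with no overlap between groups and an exact two-sided permutation p of 0.1, the smallest that 3 arrays against 3 allow. PSMB10 minus PSMB7 was higher by 0.19 with overlapping groups (exact permutation p = 0.2). Adjusted over the 3 pairs the exact permutation p-values were 0.15, 0.15 and 0.2, so the design could not carry any pair past 0.05. Without siCon replicate 3 the differences were 0.32 for PSMB9 minus PSMB6, 0.29 for PSMB8 minus PSMB5 and 0.11 for PSMB10 minus PSMB7. With the mean of a gene's probes PSMB9 minus PSMB6 was 0.14 (exact permutation p = 0.2). PSMB8 minus PSMB5 was 0.13 without siCon replicate 2, and under median scaling its groups overlapped (0.22, exact permutation p = 0.3).

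**Figure D2:**
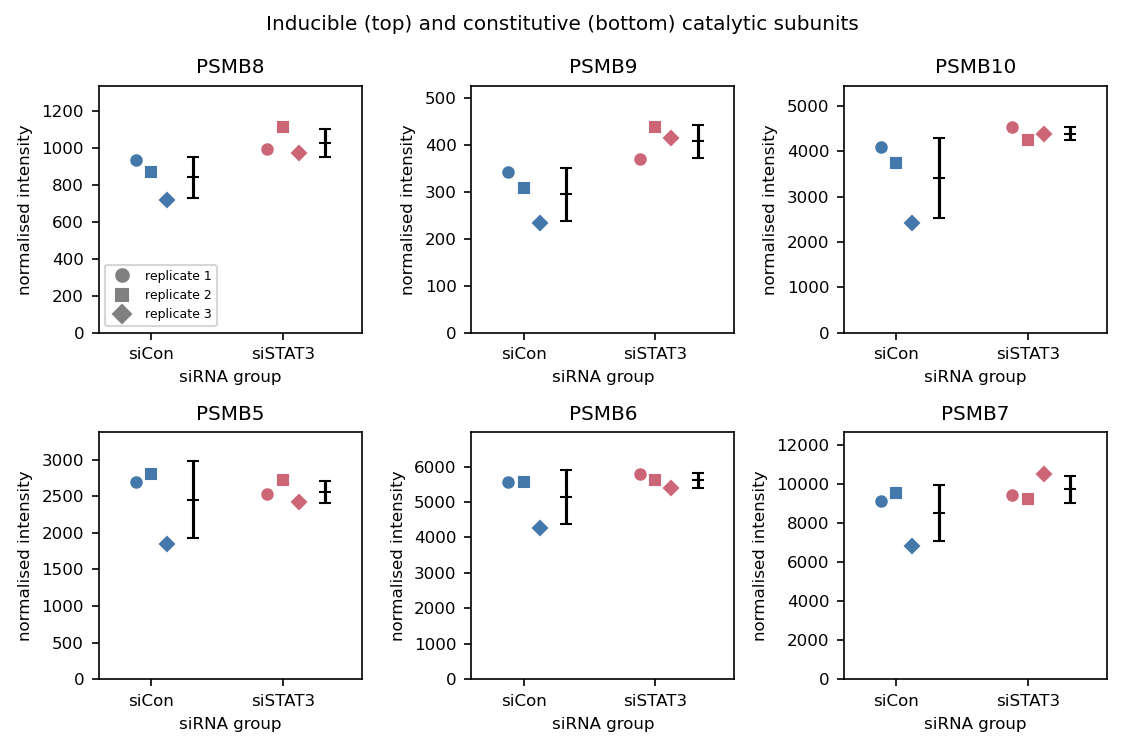
Normalised intensity (y axis, from 0, linear) of the inducible subunits PSMB8, PSMB9 and PSMB10 (top) and the constitutive PSMB5, PSMB6 and PSMB7 (bottom) on each array, by siRNA group. Symbols mark the replicate, the bar beside each group is the mean ± SD of 3 arrays, and the lowest point in each of the 6 panels is siCon replicate 3.

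Among the other beta subunits, PSMB4, a structural subunit, read 5935, 6882 and 5655 in siCon and 7262, 7089 and 7209 in siSTAT3. Its groups did not overlap, though under median scaling they did, and the change was 0.23 ± 0.11 (adjusted p = 0.418). PSMB1, PSMB2 and PSMB3 gave 0.13, 0.14 and -0.07, and without siCon replicate 3 gave 0.02, 0.04 and -0.22. Over the 7 constitutive beta subunits the median change was 0.14, with 6 above 0 and 0 called.

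The beta ring values moved with 1 array. Relative to the mean of the 6 arrays, the median constitutive beta subunit lay at -0.28 on siCon replicate 3, and between 0.01 and 0.08 on the other 5. On that array, all 7 constitutive beta subunits and all 4 inducible or thymic ones had their lowest value, where 25.8% of all genes did. The alpha subunits, the other part of the same barrel, did not share this on their representative probes. Of these, 0 of 6 were lowest on that array, with a median of 0.08. Among their other tested probes, those of PSMA3 (1173) and PSMA6 (6022) were lowest there and those of PSMA1 and PSMA4 were not. The contrast between the rings on that array thus depends on the probe. What sets that array apart was not tested. Without it the 7 constitutive beta subunits gave -0.22 (PSMB3) to 0.17 (PSMB4), and the 13 tested constitutive core genes had a median change of 0.02, against 0.07 with it. That core median moved as far with other arrays left out, to 0.00182 without siCon replicate 1, 0.00253 without siSTAT3 replicate 2, 0.123 without siCon replicate 2 and 0.121 without siSTAT3 replicate 3.

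The alpha ring subunits, which form the gate of the core, gave changes from -0.10 to 0.07 on their representative probes, with a median of -0.03. The other tested probes of PSMA1 and PSMA3 gave -0.15 and 0.11, opposite in sign to the representative ones (0.05 and -0.04). PSMA2 read 827, 819 and 917 in siCon and 770, 863 and 762 in siSTAT3 (-0.10 ± 0.11, adjusted p = 0.801). PSMA6 read 21534, 23423 and 22225 against 22322, 21255 and 19822 (-0.08 ± 0.10, adjusted p = 0.829). The groups of both overlapped. The testis subunit PSMA8 lay below the filter (82.8 and 78.7) and was not tested.

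**Figure D3:**
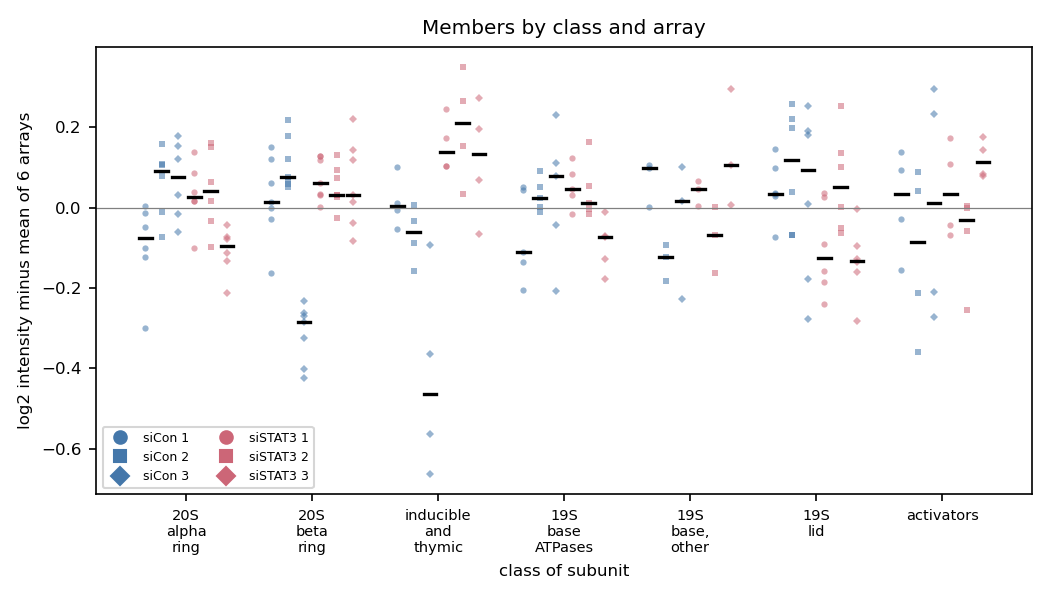
Log2 intensity of each tested subunit and activator gene minus its mean over the 6 arrays (y axis), by class and array, with siCon in blue and siSTAT3 in red. Black bars are class medians. The siCon replicate 3 bars of the beta ring (-0.28) and of the inducible and thymic subunits (-0.46) lie below those of every other array.

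In the lid, which removes ubiquitin chains, PSMD11, a scaffold subunit, read 321, 347 and 329 in siCon and 246, 278 and 239 in siSTAT3. Every siSTAT3 array lay below every siCon array. The change was -0.39 ± 0.11 (interval -0.61 to -0.16, limma adjusted p = 0.0931), the lowest adjusted p of the 44 tested genes. In bulk RNA, less RNA per cell and fewer cells of a kind cannot be told apart. With array weights, which give less weight to arrays that fit the model poorly, PSMD11 passed as the 1 proteasome gene (-0.39, limma adjusted p = 0.0353), in a fit that called 3.09% of all genes. At the level of probes that weighting called PSMD11 and the PSMB8 probe ILMN_1767006 (adjusted p = 0.045 and 0.0499), against 2.39% of all probes. Without siCon replicate 3 PSMD11 gave -0.40 (adjusted p = 0.0569). It has 1 probe on the array, so no other probe bears on it.

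PSMD6, another lid scaffold, read 7811, 7829 and 8696 in siCon and 7147, 7353 and 6969 in siSTAT3. The groups did not overlap (-0.18 ± 0.10, adjusted p = 0.54), though under median scaling they did. Its other probe gave -0.13 with overlapping groups. The deubiquitinase PSMD14 gave -0.15 ± 0.12 (adjusted p = 0.722). PSMD3, PSMD8 and PSMD12 gave -0.08, 0.02 and 0.09, and without siCon replicate 3 gave -0.19, -0.12 and 0.11. The median of the 6 lid genes was -0.11, with 4 below 0 and 0 called. It was -0.0557 without siSTAT3 replicate 1 and -0.18 without siSTAT3 replicate 2.

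In the base, the 5 tested ATPases PSMC1, PSMC2, PSMC3, PSMC4 and PSMC6 gave -0.08 to 0.08, with 3 above 0. PSMC4, with the smallest p of them, gave 0.08 ± 0.11 on its representative probe (adjusted p = 0.853) and -0.14 and -0.16 on its other probes, so its direction depends on the probe. PSMC1 gave -0.07 ± 0.10 (adjusted p = 0.872), and 0.02 under median scaling. Of the base subunits that are not ATPases, the ubiquitin receptor PSMD4 read 3623, 2966 and 2877 in siCon and 3379, 3372 and 4131 in siSTAT3, with overlapping groups (0.20 ± 0.12, adjusted p = 0.58). Its other probe gave 0.03, and without siSTAT3 replicate 3 the change was 0.11. PSMD1 and PSMD2, the large scaffolds, gave 0.07 and -0.07. The 8 base genes had a median of 0.04, beside 0.07 for the constitutive core and -0.11 for the lid. Under median scaling these were 0.0940, 0.113 and -0.0703, and differences between the classes were not tested.

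Of the activators, PSME1 and PSME2, which form the interferon-inducible PA28 ring, gave changes nearer 0 than those of the inducible catalytic subunits, a difference that was not tested. PSME1 read 4887, 5127 and 4309 in siCon and 5615, 4781 and 5259 in siSTAT3 (0.13 ± 0.11, adjusted p = 0.743). PSME2 read 1692, 1633 and 1273 against 1493, 1541 and 1630 (0.03 ± 0.12, adjusted p = 0.964). Both groups of arrays overlapped for each gene. PSME3, the nuclear activator, gave -0.12 ± 0.14 (adjusted p = 0.821). PSME4, the large activator that also binds acetylated histones, read 1709, 1482 and 2235 in siCon against 2052, 1900 and 2148 in siSTAT3. The third siCon array was the highest of the 6, and without it the change moved from 0.19 ± 0.14 (adjusted p = 0.668) to 0.35 (adjusted p = 0.101). Without siCon replicate 2 it was 0.06 (adjusted p = 0.918). The inhibitor PSMF1 lay below the filter on its 1 probe (80.3 ± 11.3 and 89.02 ± 11.9) and was not tested.

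Assembly factors gave small changes on their representative probes. PSMG1, a chaperone of alpha ring assembly, gave -0.09 ± 0.11 (adjusted p = 0.821) on its representative probe, from 3157, 3285 and 3426 to 2817, 3201 and 3268. Its other probe, ILMN_1659285, read 3291, 3607 and 3405 in siCon and 2487, 2744 and 2720 in siSTAT3. That probe's groups did not overlap (-0.37 ± 0.10, limma adjusted p = 0.109 over probes), and no probe of the gene was called. PSMG2 gave -0.00 and PSMG3 0.04. The base chaperones PSMD5 and PSMD9 gave -0.07 (adjusted p = 0.87) and -0.05. PSMD10, a base chaperone also known as gankyrin, gave 0.08 ± 0.10 (adjusted p = 0.849), with 0.10 and -0.21 on its other probes.

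Of the 17 genes with 2 or more tested probes, 12 had the same sign on all of them. The genes that share the prefix only gave -0.11 (PSMC3IP), 0.03 (PSME3IP1) and, near background, -0.21 (PSMD6-AS2).

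**Figure D4:**
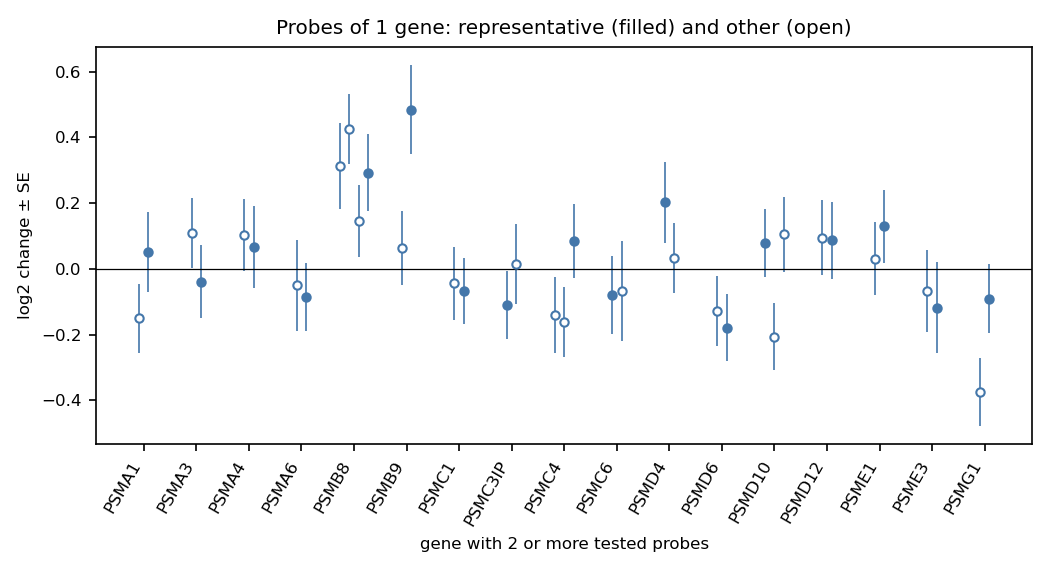
Log2 change ± SE (y axis) of each tested probe for the 17 genes with 2 or more, with the representative probe filled and others open. All 4 PSMB8 probes lie above 0, and the PSMG1 probes lie at -0.37 and -0.09.

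Genes that work beside the proteasome were read from lists of its partners. In the main fit 1.46% of all genes were called, so a count of 0 in lists this short is near that share. Among 14 further proteasome-associated proteins 0 were called, with 8 above 0. The deubiquitinase USP14, which sits on the base and trims chains, read 648, 545 and 661 in siCon and 807, 767 and 825 in siSTAT3. Its groups did not overlap (0.38 ± 0.11, limma adjusted p = 0.123), and it passed without siCon replicate 3 (0.43, adjusted p = 0.0403) and with array weights (0.38, adjusted p = 0.043). None of 11 shuttle receptors and p97 cofactors was called, the smallest p being that of UBQLN2 (0.19, adjusted p = 0.52). Ubiquitin and E1 genes (3 tested) held UBA1 at -0.15 (adjusted p = 0.677).

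None of 11 tested regulators of proteasome genes was called, where 1.46% of all genes were. NFE2L1, which drives the response to proteasome shortage, gave -0.07 (adjusted p = 0.904), and the CCAAT-binding subunit NFYB gave -0.23 (adjusted p = 0.427). IRF1, an activator of PSMB8, PSMB9 and TAP1, read 757, 839 and 712 in siCon and 857, 999 and 852 in siSTAT3. Its groups did not overlap (0.23 ± 0.11, adjusted p = 0.435). TAP2 and TAP1 lie on either side of PSMB8 on chromosome 6, and TAP1 lies between PSMB8 and PSMB9. TAP1 and TAP2 differed in sign, at 0.15 (adjusted p = 0.725) and -0.18 (adjusted p = 0.528). Of the 7 tested genes of class I antigen processing 0 were called, against the same 1.46%.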

How the data were processed

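The authors deposited bead-array intensities that were not normalised, per the file headers, and a table of processed intensities of the same arrays, whose array medians were all 94.2 and whose probe order within each array was that of the first table. Per the submitters' processing notes the software was BeadStudio, and whether background was subtracted is not stated there. From the first table, intensities were quantile-normalised and taken to log2. Probes with a single gene symbol in the platform annotation were kept where their mean exceeded the 40th percentile (intensity 89.9), the probe of highest mean stood for its gene, and groups were compared with limma 3.58.1 in R 4.3.3 (lmFit, eBayes, Benjamini-Hochberg over 14145 genes, adjusted p under 0.05). Probes were also fitted singly. Catalytic partners were compared by exact two-sided permutation tests.

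Groups and replicate numbers came from the sample titles. Correlations of same-numbered arrays' deviations from their group means were 0.05, 0.18 and 0.07. They were not set against those of differently numbered arrays, and so cannot decide whether the numbers pair the arrays. The labels do not say so, and the main fit did not pair them. The number of arrays limits the precision. Promoter windows came from RefSeq. Alternatives covered normalisation, filter, probe summary, variance model, array weights, replicate block and leaving out each array. The genes named by rule were STAT3, called members, the 2 members of each class with the smallest p, PSMB5 to PSMB10, the activators and PSMF1, members whose probes differed in sign and by over 0.3, and the called genes, or else the smallest p, of each further list. The remaining members, CD68, CDH1, EPCAM, MUC16, PAX8, WT1, IRF1, NFE2L1 and TAP1 were named after their values were seen. Members and lists were chosen with earlier results of these data known.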

Additional observations from a re-analysis of the deposited data

How the results depend on the processing

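Under the alternatives run, 207 genes called became 437 with array weights, 31 in a test against a fold of 1.2, and 61 to 402 with 1 array left out (402 without siCon replicate 3, and 66, 82 and 61 without siSTAT3 replicates 1, 2 and 3). Array weights called 1 proteasome gene (PSMD11) and 2 proteasome probes, and every other alternative called 0 of both, except that the mean of a gene's probes gives no count of probes. With the replicate number as a block 283 genes and 0 proteasome genes were called, though the labels do not say whether the numbers pair the arrays. Counts of proteasome genes whose groups did not overlap, an alternative chosen after seeing the data, ran from 7 to 13 with 1 array left out (8, 12 and 13 without siCon replicates 1, 2 and 3, and 7, 10 and 12 without siSTAT3 replicates 1, 2 and 3), where 25.3% to 30.4% of all genes were without overlap in the same fits and 16.3% to 29.5% of members. Median scaling gave 4 (PSMB2, PSMB7, PSMB9 and PSMD11), or 9.09% of members against 16.3% of all genes. There the groups of PSMB4, PSMB8, PSMB10 and PSMD6 overlapped, unlike in the main fit. PSMB9 and PSMD11 were without overlap in all 16 alternatives. Most of these reuse the same values or leave out 1 array, and so could hardly make groups already apart overlap. The median change of all 44 members was 0.0723 under median scaling and -0.00272 to 0.0557 with 1 array left out. That of the base was 0.094 under median scaling, -0.0246 with the mean of a gene's probes and -0.0186 to 0.0524 with 1 array left out (-0.0186 and -0.00193 without siCon replicate 1 and siSTAT3 replicate 1). With 1 array left out the lid median ran from -0.18 (without siSTAT3 replicate 2) to -0.0557 (without siSTAT3 replicate 1), and that of the constitutive core from 0.00182 (without siCon replicate 1) to 0.123 (without siCon replicate 2). Uncalled genes near 0 turned sign. With the mean of a gene's probes PSMC4 gave -0.0724, PSMD10 -0.00735 and UBA1 0.0255, and median scaling gave PSMC1 0.0159. Array weights gave PSMG3 -0.0217, PSMB5 -0.0328 and PSME2 -0.0534. With 1 array left out PSMG3 ran from -0.12 to 0.15, PSMB5 from -0.11 to 0.19, PSME2 from -0.10 to 0.11 and PSME3 from -0.25 to 2.43e-04. The causes of these shifts were not tested. Of the values recomputed, 624 were labelled unchanged, 18 moved, 13 turned sign, 3 came to pass the threshold and 14 no longer passed it, all 14 of KRT8 and LRRN4. For single genes, unchanged meant the same direction and side of the threshold. For counts it meant within 1.5-fold of the main value, and for class medians a shift smaller than the spread between arrays. An unchanged median could thus still fall close to 0. PSMB11, PSMF1 and PSMA8 lay near background, where only large differences could be measured.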
